A study of Arabidopsis thaliana with 5 samples.

Results

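The arrays hybridised with RNA from the Arabidopsis thaliana lines CAMTA.6.2 and CAMTA.1 were set against the other 3 arrays of a series of 5 (CAMTA.1.2, and the arrays with the accession Col-0 or WS and no line). The split of these 2 arrays from the other 3 crosses the accession labels. It was noticed in the data, and the probe sets below were chosen from the measured values themselves, so every value that follows is a description and nothing about the split was tested. A probe set, which is a group of oligonucleotides that reads 1 transcript or a few related ones, was counted when the lowest intensity of one side was at least 2-fold above the highest of the other. Intensities under about 18, the 40th percentile of all deposited values, were first set to that value, which is called the floor. Of 8247 probe sets, 132 met the rule. CAMTA.6.2 and CAMTA.1 were higher at 23 of them, which is 0.279%, and lower at 109, which is 1.32%.

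By its title the series concerned transcription factors that bind calcium/calmodulin. Transcripts of whole plants were measured at growth stage 1.04, grown at 18 degrees and 65% humidity under 16 h of light and 8 h of dark, on Affymetrix Arabidopsis arrays. Beyond the line names, the labels do not say which gene carries an insert. CAMTA.6.2 was labelled as a Col-0 T-DNA insertion line of the third transformed generation, made with the vector pROK2 and described as single and segregating, so its plants can differ in the insert they carry. CAMTA.1.2 was labelled as a Col-0 T-DNA line of the same generation and vector. CAMTA.1 was labelled WS with no modification described. The arrays called Col-0 and WS carry the accession and no line in their characteristics. The source names do not follow the characteristics, since KO1 stands on Col-0, KO2 on CAMTA.1.2, KO3 on CAMTA.1, WSC on CAMTA.6.2 and EX1 on WS, and no array is called a control here. The labels give no number of plants per RNA sample, and each label had 1 array, so no value has a replicate. Intensities of the same probe set were compared across arrays, and levels were not compared between genes. Where values are given without array names, they are CAMTA.6.2 and CAMTA.1 against Col-0, CAMTA.1.2 and WS, in that order.

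CAMTA proteins are transcription factors that bind calmodulin, the calcium sensor, and DNA words with a CGCG core. They are known from work in Arabidopsis as regulators of rapid stress transcripts, of cold-responsive genes and of defence genes. Plants also change the same transcripts within minutes of touch, wounding or a temperature step, and change photosynthesis and sugar-responsive transcripts with light, time of day and carbon supply.

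The accession labels were checked on ECS1, whose level is known to vary with accession and which was picked after its values had been seen. Its intensity was 3433 on CAMTA.6.2 and 38.1 on CAMTA.1, against 6855 on Col-0, 4833 on CAMTA.1.2 and 104 on WS. The 2 arrays of interest therefore lay apart from each other for this gene, each with the arrays of its own labelled accession. Of the CAMTA genes themselves, AT1G67310 (CAMTA4) had intensities of 9.7 to 17.2, all under the floor, and AT4G16150 (CAMTA5) of 15.4 to 21.8, so the CAMTA genes gave no check of the lines. No further CAMTA gene was analysed.

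The counted probe sets were few beside those whose sides did not overlap at all. CAMTA.6.2 and CAMTA.1 both lay above the other 3 arrays at 936 probe sets, or 11.3%, and below them at 953, or 11.6%. The 2-fold rule kept 23 of the first and 109 of the second, so the directions were near even in number before the 2-fold rule and uneven after it. With each array scaled by its median the 936 and 953 became 1225 and 801, or 60.5% higher against 49.6% as deposited, while the counted probe sets were 25 and 91. The gap, the fold between the nearest arrays of the 2 sides, had a median of 2.48 over the 23 higher probe sets and 2.61 over the 109 lower ones. It was at least 3-fold at 4 of the higher and 42 of the lower probe sets. One side was wholly at or under the floor at 3 higher and 17 lower probe sets, where the fold is a lower bound. Nearest the threshold, MCCA at 2.05-fold and an unnamed probe set at 2.06-fold were just inside on the higher side, and 2 unnamed probe sets at 1.95-fold were just outside. On the lower side 2 unnamed probe sets stood at 2.00-fold, just inside, while an unnamed probe set at 1.99-fold and AT2G41410 at 1.98-fold stood just outside. Each array carried part of the rule. Leaving out 1 array loosens it, so the counts can only grow, and the higher count went to 114 without CAMTA.1, 53 without CAMTA.6.2 and 51 without WS, while the lower count went to 192 without CAMTA.1.

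**Figure D1:**
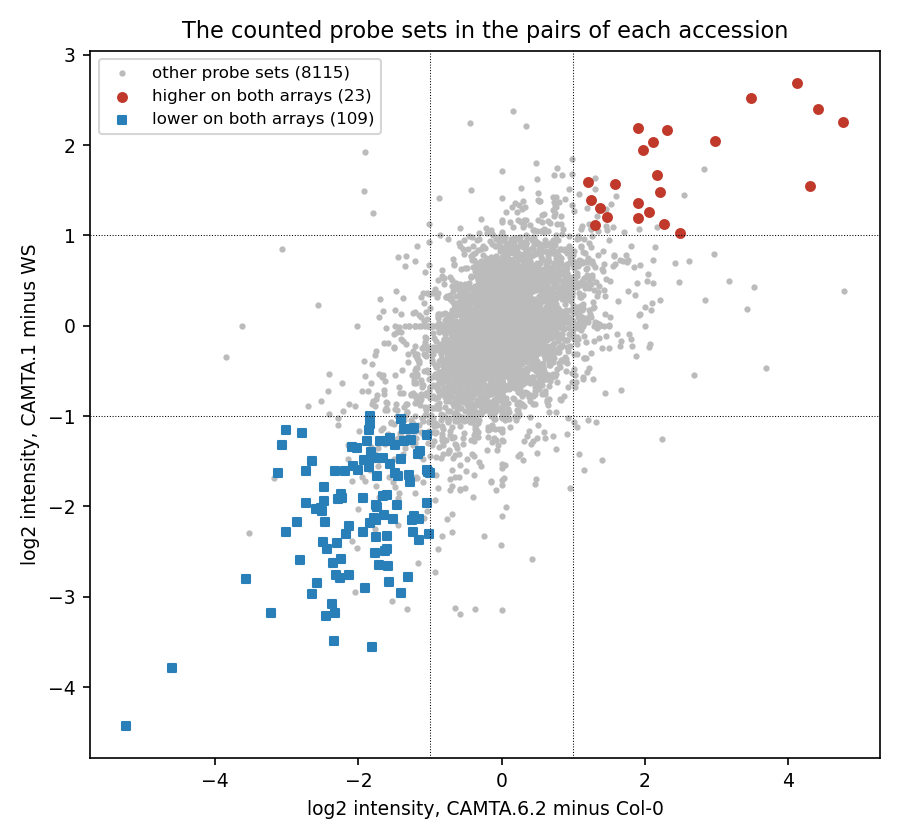
Each point is 1 of the 8247 probe sets, with the log2 intensity difference of CAMTA.6.2 minus Col-0 on the x axis and of CAMTA.1 minus WS on the y axis after values were set to the floor. The 23 higher (circles) and 109 lower (squares) probe sets lie outside the dotted 2-fold lines on both axes, as the rule requires.

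The light-harvesting gene LHB1B2 was higher at both of its probe sets. It encodes a chlorophyll a/b-binding protein of the main antenna of photosystem II. One probe set read 2423 on CAMTA.6.2 and 1895 on CAMTA.1, against 491 on Col-0, 636 on CAMTA.1.2 and 423 on WS, and the nearest arrays were 2.98-fold apart. The other probe set read 83.9 on CAMTA.6.2 and 50.5 on CAMTA.1 and was under the floor on the other 3 arrays, a gap of at least 2.79-fold. The antenna genes of this family are close in sequence, and the suffix of the first probe set marks probes that can match several transcripts, so signal from related genes cannot be told apart.

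LHCB4.3, which encodes an isoform of a minor antenna protein of photosystem II, lay on the opposite side. It read 49.5 on CAMTA.6.2 and 47.1 on CAMTA.1, against 357 on Col-0, 216 on CAMTA.1.2 and 212 on WS, a gap of 4.28-fold, and the values of the 2 lower arrays were close together. The probe set of LHCB4.3 carries the suffix described for LHB1B2, as do those shown for PSAE-1 and PSBY. Signal from related transcripts cannot be told apart there either. Of 43 listed light-harvesting and photosystem loci, 7 were measured by a probe set that named them alone. LHB1B2 was the 1 counted as higher and LHCB4.3 the 1 counted as lower. The other 5, LHCB4.1, PSAE-1, PSAN, PSBW and PSBY, were all above the other 3 arrays on CAMTA.6.2 and CAMTA.1 by less than the rule asks. Their gaps ran only from 1.02-fold at PSBY to 1.16-fold at PSAN. With LHB1B2 these 5 genes made 6 of 7 wholly above, where 386 of the 3600 named genes were, or of the 2302 above the floor on any array. The list was chosen with earlier results of these data known, so this count is a description and no test of the list. PSAE-1, a subunit of photosystem I, read 4890 and 3751 against 2503, 3262 and 2281, and PSBY, of photosystem II, read 3464 and 2403 against 2239, 2358 and 1780.0. The median log2 difference over the 7 genes was 0.81 for CAMTA.6.2 minus Col-0 and 0.49 for CAMTA.1 minus WS, where the 3600 named genes had a median of 0 in each. With quantile normalization these medians were 0.46 and 0.19, and PSBY overlapped between the sides. Over all 3600 named genes, 9 were counted as higher and 28 as lower.

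Genes of chlorophyll synthesis and carbon fixation held no counted probe set. Of 16 chlorophyll synthesis loci 3 were measured. PORB, the light-dependent enzyme that reduces protochlorophyllide, came closest, at 964 on CAMTA.6.2 and 447 on CAMTA.1 against 256 on Col-0, 211 on CAMTA.1.2 and 213 on WS. Its gap was 1.75-fold, with CAMTA.6.2 well above CAMTA.1. Of 10 carbon fixation loci 3 were measured, and PRK and SBPASE, enzymes of the Calvin cycle, lay below the other 3 arrays by 1.26-fold and 1.29-fold. PRK read 759 and 847 against 1235, 1384 and 1067, and RCA, the Rubisco activase gene, overlapped between the sides as deposited but was lower on both arrays, with a log2 gap of -0.31, with quantile normalization.

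Sugar-related genes stood on both sides, with 2 of 7 measured loci counted as higher and 1 as lower. Among the 3600 named genes 9 were counted as higher and 28 as lower. MCCA, a subunit of the leucine-degrading methylcrotonyl-CoA carboxylase, read 188 on CAMTA.6.2 and 88.4 on CAMTA.1, against 33.5 on Col-0, 23.3 on CAMTA.1.2 and 43.2 on WS, and AT1G54740 read 192 and 132 against 39.9, 29 and 60.5. For both genes CAMTA.6.2 was the highest array and WS the highest of the other 3. ATSPS4F, a sucrose-phosphate synthase gene, was under the floor on both arrays, with 14.3 and 16.2 against 102, 103 and 94.8, a gap of at least 5.24-fold. The other 3 arrays were at nearly the same level for ATSPS4F. Of the 7 measured loci among 29, AT2G20670 read 939 and 266 against 146, 80.6 and 387, and AT2G30600 read 433 and 111 against 60.5, 145 and 90.9. CAMTA.6.2 was the highest array for both, while CAMTA.1 lay under WS for the first and under CAMTA.1.2 for the second. MCCB, the second subunit gene of the enzyme, lay above the other arrays by 1.21-fold.

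**Figure D2:**
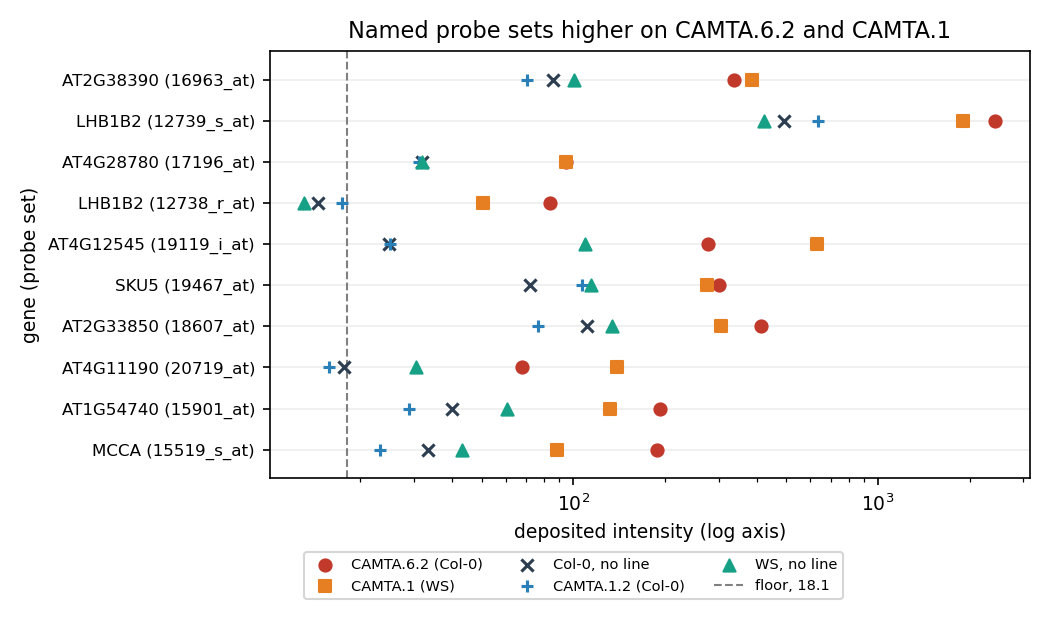
Deposited intensity on a log axis for the 10 named probe sets that were higher on CAMTA.6.2 (circles) and CAMTA.1 (squares), with 1 symbol per array and the floor as a dashed line. For every probe set the circle and the square lie to the right of the other 3 arrays, and WS is the nearest of those 3 except for LHB1B2.

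The remaining genes on the higher side were AT2G38390, SKU5, AT4G28780, AT4G12545, AT4G11190 and AT2G33850. AT2G38390, a class III peroxidase gene, had the largest gap of the named genes at 3.35-fold, and read 336 on CAMTA.6.2 and 385 on CAMTA.1, against 85.5 on Col-0, 70.6 on CAMTA.1.2 and 100.2 on WS. SKU5, a GPI-anchored protein of directional root growth, read 299.9 and 275 against 72, 107 and 115, and the esterase/lipase family gene AT4G28780 read 95 and 94.8 against 31.8, 31.1 and 31.9. AT4G28780 was almost level within each side. AT4G12545, of the lipid transfer protein family, read 277 and 630.4 against 24.8, 25 and 109.5, so CAMTA.1 stood above CAMTA.6.2 and WS above the arrays labelled Col-0 with no line and CAMTA.1.2. AT4G11190, of the dirigent-like family, was also highest on CAMTA.1, with 67.9 and 139 against 17.7, 15.8 and 30.4. AT2G33850 read 414 and 306 against 111, 76.9 and 134.

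Of 44 touch, wound and rapid stress loci 5 were measured, and 2 were counted, STZ and AT4G27280, both lower. Over all 3600 named genes 28 were counted as lower and 9 as higher. STZ, also called ZAT10, encodes a zinc finger repressor induced within minutes of many stresses. Its 2 probe sets read 61.2 on CAMTA.6.2 and 28.7 on CAMTA.1, against 293 on Col-0, 459.8 on CAMTA.1.2 and 199 on WS, and 125 and 67 against 424, 582 and 383 in the same order, with gaps of 3.25-fold and 3.07-fold. CAMTA.1 was the lowest and CAMTA.1.2 the highest array at both probe sets. AT4G27280, an EF-hand calcium-binding protein gene, read 191 and 71 against 567, 387 and 508, a gap of 2.03-fold in which CAMTA.6.2 was the nearer array. Its log2 gap was -0.98 with median scaling and -0.96 with quantile normalization, just short of 2-fold, while STZ stayed counted with both. WRKY53, a transcription factor gene of senescence and defence, overlapped because CAMTA.1.2 was at 14.1, beside 12.7 on CAMTA.6.2 and 8.9 on CAMTA.1, all under the floor, while Col-0 was at 64.2 and WS at 45.9. WRKY6 had a gap of 1.02-fold on the lower side, which became an overlap with either scaling, and WRKY22 was above the other 3 arrays by 1.39-fold.

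Of 24 chaperone loci 3 were measured and 1 was counted, as lower, where 28 of the 3600 named genes were. Hsp70-2, a cytosolic heat shock protein 70 gene, read 62.6 on CAMTA.6.2 and 37.4 on CAMTA.1, against 195 on Col-0, 262 on CAMTA.1.2 and 159.5 on WS, a gap of 2.55-fold. Its second probe set read 31.8 and 2 against 71.5, 60 and 112, a gap of 1.89-fold that fell short of the rule. AT3G09440, a further gene of that family, read 885 and 486 against 2081, 2634 and 1212, a gap of 1.37-fold, although it was at least 2-fold lower on CAMTA.6.2 than on Col-0 and on CAMTA.1 than on WS. AT2G19310, of the small heat shock protein family and outside the list, read 92 and 105 against 258, 361 and 323. The remaining measured chaperone gene, AT1G53540, was near or under the floor on all arrays.

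Of 15 auxin loci 3 were measured, and IAGLU was the 1 counted, as lower, where 28 of the 3600 named genes were. IAGLU, which encodes an enzyme that attaches glucose to the auxin indole-3-acetic acid, read 33 on CAMTA.6.2 and 118 on CAMTA.1, against 267 on Col-0, 402 on CAMTA.1.2 and 262 on WS, so CAMTA.6.2 was well below CAMTA.1. The genes that follow were in no list. AT3G21670 (NPF6.4), a nitrate transporter family gene, was at the floor on CAMTA.6.2 and 12.7 on CAMTA.1, against 93.6, 144 and 153, a gap of at least 5.17-fold. GTR1, a transporter of glucosinolate defence compounds, read 63.3 and 58 against 186, 179 and 137. The chitinase gene CHI read 13.1 and 13.8 against 120.0, 58.4 and 55.1, with both arrays under the floor and Col-0 above CAMTA.1.2 and WS. The isoflavone reductase-like gene AT1G75280 read 108 and 67.5 against 308, 314 and 296, and the dioxygenase family gene AT1G04350 read 74.4 and 91.3 against 249, 369 and 368. The MYB-like factor gene AT1G70000 read 23.9 and 5.7 against 73.6, 102 and 102.

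Further lower genes, also in no list, included AT4G21650, AT4G21640, AT2G39850, AT2G24280 and UBC29. The subtilase gene AT4G21650 read 34.3 on CAMTA.6.2 and 26.1 on CAMTA.1, against 188 on Col-0, 214 on CAMTA.1.2 and 242 on WS, a gap of 5.48-fold. AT4G21640, its neighbour in the reference gene table and also a subtilase gene, read 24.9 and 20.6 against 67.8, 87.9 and 65.1, and the subtilase gene AT2G39850 read 35.1 and 25 against 70.8, 91.8 and 123. The probe sets of the 2 neighbours carry the suffix for a sequence family, so signal shared between them cannot be told apart. AT2G24280, of a serine carboxypeptidase family, had 4 probe sets, of which 2 were counted, with gaps of 2.04-fold and 2.01-fold. These read 37.7 and 42.2 against 99.5, 117 and 86.1, and 38.9 and 51.3 against 103, 147 and 142. Its other 2 probe sets had the same direction, with gaps of 1.66-fold and 1.2-fold. UBC29, a ubiquitin-conjugating enzyme gene, read 46.5 and 45.1 against 120.1, 94.2 and 99.5.

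AT2G20870 had the largest gap at the floor used, as a bound. With a floor of 36 its log2 gap went from -3.33 to -2.34, a smaller size than the 2.69 of the unnamed probe set 15170_s_at. One probe set was under the floor on CAMTA.6.2 and 15.9 on CAMTA.1, against 683 on Col-0, 183 on CAMTA.1.2 and 389 on WS. The other read 9.6 and 14.8 against 440.0, 90.5 and 251 in the same order, with gaps of at least 10.1-fold and 5.00-fold. The other 3 arrays differed among themselves here, with Col-0 the highest and CAMTA.1.2 the lowest. ATA20, an anther gene, was also highest on Col-0, with 19.6 and 21.7 against 163, 67.3 and 54.1. With a floor of 36 the log2 gap of ATA20 went from -1.32 to -0.59, short of 2-fold. AT1G09500, related to cinnamyl alcohol dehydrogenases, read 21.8 and 7.8 against 76.1, 119.8 and 213 and 3.7 and 5 against 44.8, 63.5 and 124 at its 2 probe sets, with WS the highest array at both. The lipid transfer protein family gene AT2G44290 read 126 and 62.1 against 381, 294 and 312, and AT4G17840 read 118 and 102 against 397, 402 and 452.

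The other named genes of the lower side were AT2G15580, AT4G34630, AT1G16320, AT2G31560 and AT2G17280, with gaps from 2.00-fold at AT2G17280 to 2.88-fold at AT2G15580. AT2G15580 read 75.5 and 111 against 319, 490.1 and 325, and AT4G34630 read 126 and 191 against 465, 540.5 and 462. AT1G16320 read 160.5 and 180.1 against 385, 426 and 432, with the 3 higher arrays close together. AT2G31560 read 3.8 and 11.7 against 37.2, 38.3 and 41.9, under the floor on both arrays, and AT2G17280 read 22.9 and 22.9 against 45.9, 45.9 and 70.9. In all, the 23 higher probe sets comprised 10 that named 9 genes and 13 with no gene name here. The 109 lower ones comprised 32 that named 28 genes, 1 that named several and 76 with none. The largest gap on the higher side belonged to the unnamed probe set 15170_s_at, which read 3835 on CAMTA.6.2 and 1456 on CAMTA.1, against 219.7 on Col-0, 191 on CAMTA.1.2 and 226 on WS, a gap of 6.45-fold. The next, 20330_at, read 77.9 and 74 against 10.4, 18 and 15.6. Among the unnamed lower probe sets, 12876_at read 8.1 and 26.7 against 169, 193 and 242 and 16301_at read 32.3 and 33.8 against 192, 232 and 244. Of the 6 named genes with several probe sets and at least 1 of them counted, 4 were counted at every one. How far probe sets of the same gene share probes was not examined.

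**Figure D3:**
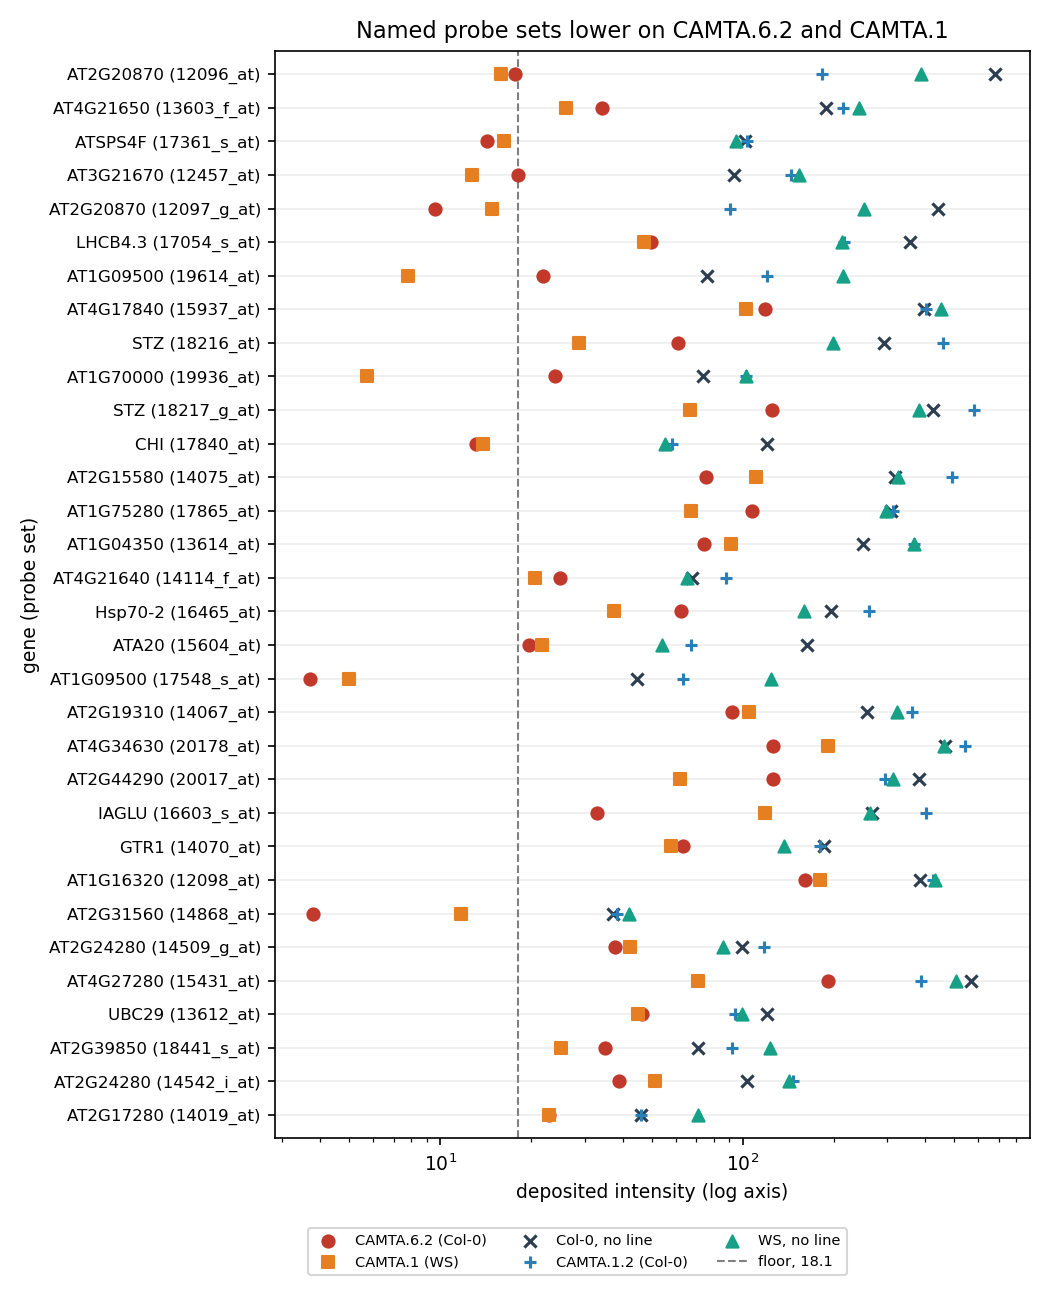
Deposited intensity on a log axis for the 32 named probe sets that were lower on CAMTA.6.2 (circles) and CAMTA.1 (squares), ordered by gap, with 1 symbol per array and the floor as a dashed line. AT2G20870, at the top, lies left of the floor on both arrays and at 683, 183 and 389 on the other 3.

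The 2 arrays were not alike in size. Among the 23 higher probe sets the median fold was 4.3 for CAMTA.6.2 over Col-0 and 2.97 for CAMTA.1 over WS, and the fold was larger in the Col-0 pair at 20. Among the 109 lower probe sets the medians were 3.58 and 3.89, and the fold was larger in the Col-0 pair at 53 and in the WS pair at 56. A fold is a lower bound where an array of its pair was under the floor. This holds for 20330_at and 20271_at, which gave the medians of 4.3 and 3.58. CAMTA.6.2 and CAMTA.1 lay within 1.5-fold of each other at 15 of the 23 higher and 85 of the 109 lower probe sets. At 17 of those 85 both arrays were at or under the floor, so the floor made them equal and their closeness was not measured. The same share over all probe sets is not given here. WS was the nearest of the other 3 arrays at 15 of the 23 higher probe sets, Col-0 at 2 and CAMTA.1.2 at 3, with 3 tied at the floor. On the lower side the nearest was Col-0 at 43, WS at 34 and CAMTA.1.2 at 31. The other 3 arrays also differed among themselves, since CAMTA.1.2 was at least 2-fold below Col-0 at 8 of the 109 lower probe sets and above it at 2. There Col-0 was as far below WS at 5 and above it at 3, and CAMTA.1.2 was above WS at 3 and below it at 2. Among the 23 higher probe sets CAMTA.1.2 was 2-fold below WS at 5 and Col-0 at 4. The same counts over all probe sets are not given here.

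Because each accession had its own pair, the rule required a 2-fold difference in both. CAMTA.6.2 was 2-fold above Col-0 at 247 probe sets, or 3.00%, and below it at 373, or 4.52%. CAMTA.1 was 2-fold above WS at 131, or 1.59%, and below it at 377, or 4.57%. Median scaling moved the last pair to 199 and 306, which is 39.4% higher against 25.8% as deposited, and quantile normalization to 183 and 328. Both pairs were 2-fold higher at 46 probe sets and lower at 198, with 12 in opposite directions. The rule counted 23 of the 46 and 109 of the 198, and the others overlapped an array of the other accession or CAMTA.1.2, or came within 2-fold of it. SRC2, a C2-domain protein gene, was one of these, at 267 and 217 against 954, 432 and 657. AT2G41090, a calmodulin-like protein gene, was another, at 182 and 82.3 against 568, 132 and 307. THI2.1, an antimicrobial thionin gene, read 12.3 and 14.6 against 209, 2.1 and 88.7, under the floor on CAMTA.1.2 as well.

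In several lists the medians of the 2 pairs lay apart. Of 21 cold, drought and ABA loci 4 were measured, and none was counted or lay wholly on one side as deposited, while COR47, a dehydrin gene, lay wholly above with median scaling, by a log2 gap of 0.08. COR15B, a gene of cold acclimation, read 380 on CAMTA.6.2 but 57.5 on CAMTA.1, against 91.0, 70.6 and 67.8. The median log2 difference of the 4 genes was 1.01 for CAMTA.6.2 minus Col-0 and 0.18 for CAMTA.1 minus WS. In the same order the medians were 2.27 and 0.29 for the 7 sugar genes and 0.99 and 0.01 for the 3 root-enriched genes. For the 3 defence and jasmonate genes they were 0.85 and 0. That 0 was set by the floor, since LCR67 and THI2.2 were under it on both CAMTA.1 and WS. The 0.85 was that of LCR67 and the root-enriched 0.99 that of AT4G26010. Both genes were under the floor on Col-0, so these 2 differences are lower bounds. THI2.1, the remaining gene of the defence and jasmonate list, was lower in both pairs, with log2 differences of -3.53 and -2.29. These are bounds too, since CAMTA.6.2 and CAMTA.1 were under the floor. The clock gene GI, at the brightest of its 4 probe sets, read 342 and 156 against 111, 117 and 129.5, so that CAMTA.1 lay above the other 3 arrays by 1.21-fold. Of the defence and jasmonate list 3 of 26 loci were measured, of the auxin list 3 of 15 and of the cell wall list 5 of 23. Of these 3 lists the auxin list held 1 counted gene, IAGLU, the cell wall list held SKU5, and the defence and jasmonate list held none.

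**Figure D4:**
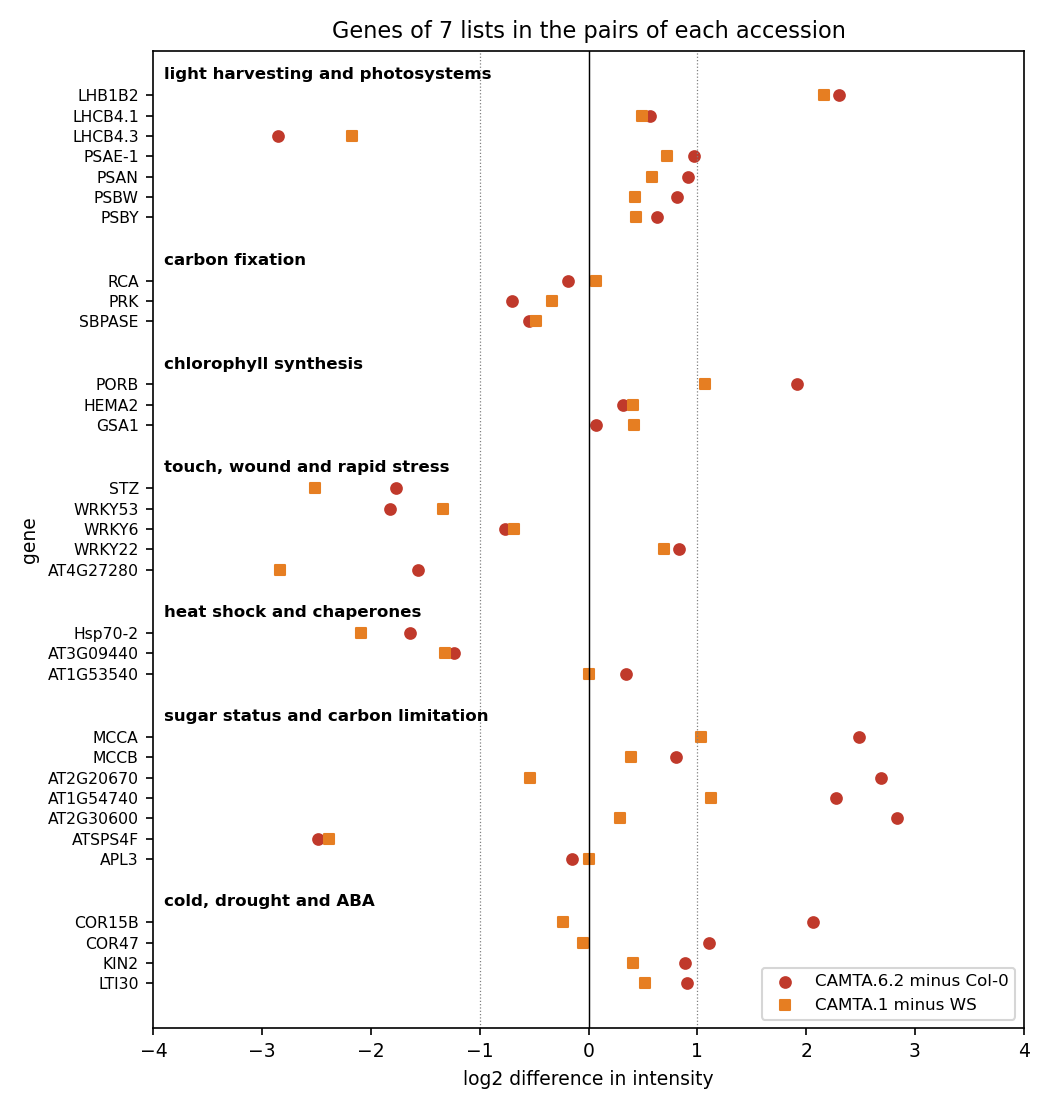
Log2 difference in intensity of CAMTA.6.2 minus Col-0 (circles) and CAMTA.1 minus WS (squares) for the measured genes of 7 lists, with dotted lines at 2-fold. The circles and squares of LHB1B2, LHCB4.3, STZ and ATSPS4F lie on the same side beyond 2-fold, while those of COR15B lie on opposite sides of 0.

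Deposited values of genes listed for root, for flower and anther, and for green tissue were summed on each array. Fewer cells of a type and less RNA per cell cannot be told apart in samples of whole plants. The 3 measured root-enriched genes of 16 summed to 342 on CAMTA.6.2 and 389 on CAMTA.1, against a range of 135 to 360.1 on the other 3 arrays, so the sides overlapped. The 2 measured flower and anther genes of 7, ATA20 and AT5G07230, summed to 24.6 and 26.2 against 76.1 to 206, and AT5G07230 was under the floor on both arrays. These sums are intensities of 2 genes at the labelled growth stage 1.04 and are no measure of flower tissue. With values set to the floor before summing, the flower and anther sums were 37.7 and 39.8 against 76.1 to 206, and the root-enriched sums 342 and 389 against 151 to 360.1. The 7 light-harvesting and photosystem genes summed to 23553 and 17869.7 against 11692 to 14949, and the 3 carbon fixation genes to 5549 and 5261 against 5428 to 7305. No seed storage gene was measured. The part of tissue amounts in the counted probe sets was not tested.

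Control probe sets were outside the rule and give a measure it did not use. The 3'/5' ratio of ubiquitin, a measure of how far labelling reached from the 3' end, was 3.57 on CAMTA.6.2 and 3.32 on CAMTA.1, against 2.64 on Col-0, 2.68 on CAMTA.1.2 and 2.28 on WS, so both arrays lay above the other 3. The ubiquitin probe sets carry the suffix for a sequence family, so signal from related transcripts cannot be told apart in this ratio. The 3'/5' ratio of GAPDH was 1.78 and 1.29 against 1.64, 1.94 and 1.38, and overlapped. The scanner background given in the labels was 74.44 and 64.86 against 60.73, 75.57 and 92.64, and overlapped too. Between 59.0% and 61.9% of probe sets were above the floor on each array. The median length of the gene in the reference table was 1218 bases for the 9 higher genes and 1864.5 for the 28 lower ones, against 2264 over the 3600 named genes. The 3600 include genes under the floor on every array, and the length over the 2302 above it on any array is not given here. Probe sets whose suffix marks a match to several transcripts made up 30.4% of the higher and 33.0% of the lower ones, against 19.9% where any array exceeded the floor. They include those of MCCA, LHCB4.3, ATSPS4F, IAGLU and AT2G39850, with 1 of LHB1B2 and 1 of AT1G09500. The part of the ubiquitin ratio, gene length and probe type in the counted probe sets was not tested.

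**Figure D5:**
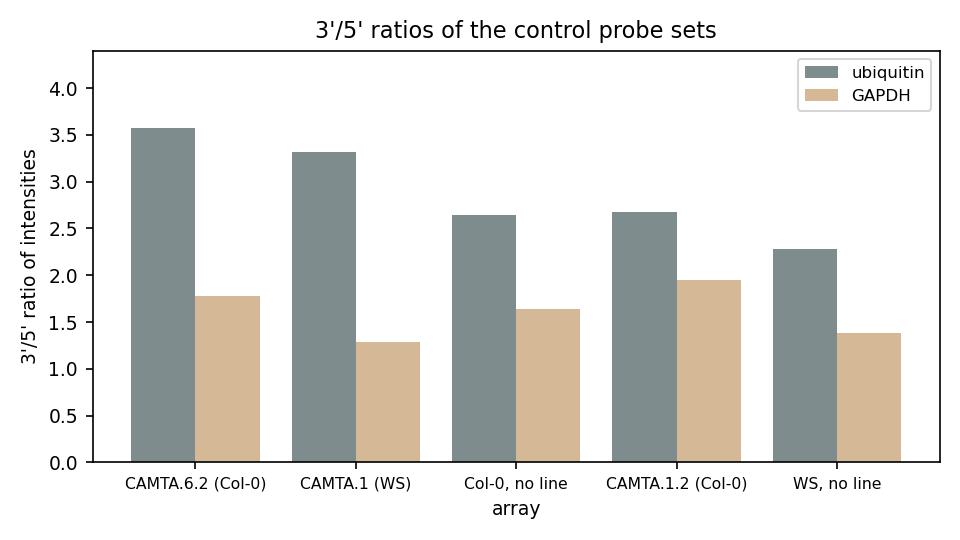
Bars give the ratio of the 3' to the 5' control probe set intensity on each array for ubiquitin and GAPDH, with 1 array per label and no error bar. The ubiquitin ratio is 3.57 and 3.32 on CAMTA.6.2 and CAMTA.1 and at most 2.68 on the other 3, while the GAPDH ratios overlap.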

How the data were processed

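RNA from whole Arabidopsis plants was measured on 5 one-colour Affymetrix arrays, 1 per label. Groups follow the accession and line in the characteristics, not the source names. The authors deposited 1 intensity per probe set and array on a linear scale, summarised by a method not given in the sources used here. The 2% trimmed mean was close to 100 on all arrays. With 1 array per label, precision is limited by their number.

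Of the probe sets, 50 controls were set aside and 8247 kept. Values were used as deposited, apart from the floor, and counted at a gap of 2-fold or more. Gene names are those of GEO's platform table, brought up to date by gene ID against TAIR10.1, which also gave gene lengths and neighbours. A single gene was named by 3794 probe sets, several by 70 and none by 4383. The members and the 15 gene lists (317 loci, 53 measured) were chosen with earlier results of these data known. A list gene with several probe sets is represented by that with the highest mean intensity. The others are not given for GI (4 probe sets), THI2.1 and PSAE-1 (3 each), or PSBW, AT3G09440, COR47, KIN2 and AT2G30600 (2 each). None of these was counted. The rule for naming genes took the 15 largest measured gaps and 5 largest bounds in each direction, counted list genes, genes nearest the threshold and list genes 2-fold apart in both accession pairs. Every other counted gene with a name, and list genes given for contrast, were added after their values were seen. Alternatives were other floors, folds and scalings and leaving out each array. Scaling of the gene lists and accession pairs, and list sums at the floor, were added after seeing the data. No test was run. The counting was tested on simulated data. Python 3.11.15, numpy 2.4.6, pandas 2.3.3 and matplotlib 3.10.9 were used.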

Additional observations from a re-analysis of the deposited data

Results flagged for a closer look

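A control probe set for 5S ribosomal RNA, outside the measurement of genes, read 276 on CAMTA.1 (276.1 as deposited) against 59.4 on WS, and 101 on CAMTA.6.2, 79.6 on Col-0 and 99.6 on CAMTA.1.2, so that the signal on CAMTA.1 was above that of every other array.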

How the results depend on the processing

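At 1.5-fold in place of 2-fold, 94 probe sets were higher and 216 lower, and at 3-fold 4 and 42. Leaving out each array in turn gave 26 to 114 higher and 131 to 192 lower probe sets, and kept all 132 by construction, since fewer arrays loosen the rule. With a floor of 9 the counts were 28 and 132, with a floor of 36 they were 20 and 86. Scaling each array by its median gave 25 and 91, with 114 of the 132 kept, and quantile normalization 26 and 94, with 115 kept. Median scaling shifted the log2 difference of all probe sets by 0.13 for CAMTA.1 minus WS and 0.05 for CAMTA.6.2 minus Col-0. No named probe set changed direction under the floors, scalings and left-out arrays tried. Of 42 named probe sets 35 stayed 2-fold apart with each scaling and 33 with the floor of 36. The 7 that fell short with each scaling were those of GTR1, AT4G27280, UBC29, AT2G39850 and AT2G17280 and 2 of AT2G24280. The 9 that fell short with the floor of 36 were those of AT4G11190, CHI, AT4G21640, ATA20, AT2G31560, AT2G39850 and AT2G17280, with 1 of LHB1B2 and 1 of AT1G09500. The promoter comparison planned in the design was not run. No paired analysis was possible because each group has 1 array and so 1 replicate number. The arrays of each accession were set side by side as a description. Intensities near the floor limit the folds. The gaps are bounds at 20 of the 132 probe sets, where one side was wholly at or under the floor. The fold within an accession pair is also a bound at further probe sets, where only 1 side of that pair was under the floor, as at 12876_at.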
